A study of Homo sapiens with 10 samples.

Results

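The 10 genes described here encode the enzymes that write, copy, remove and repair cytosine methylation of DNA: the DNA methyltransferases DNMT1, DNMT3A and DNMT3B, the dioxygenases TET1, TET2 and TET3, the hemimethylated-DNA readers UHRF1 and UHRF2, and the mismatch glycosylases TDG and MBD4. They were taken by gene symbol from a deposited table of 27142 genes, and all 10 had a row. RNA was read in 697 cells, an established human pre-B acute lymphoblastic leukaemia line, labelled as the parental line. The TPA group held 2 libraries of cells given TPA, a phorbol ester that activates protein kinase C, at 0.5 µg/ml. The control group held 2 libraries labelled as control. Both groups were grown in RPMI1640 with fetal bovine serum, and the labels give the treatment time only as a range from 0 to 24 h, with no time for any single library. Of the 10 samples in the series, 6 are ChIP-seq or input DNA and are left aside. The model is 1 cell line, and the labels do not say whether replicates came from separate cultures, so p-values reflect the spread between these libraries alone, which may be technical.

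DNA methylation is laid down on unmethylated CpG sites by DNMT3A and DNMT3B and is copied to the new strand after replication by DNMT1, which UHRF1 brings to hemimethylated sites. TET enzymes oxidise methylcytosine, TDG excises the oxidised bases so that base excision repair can restore cytosine, and MBD4 removes thymine left by deamination of methylcytosine. In B-cell development this machinery is known for its part in the loss and gain of methylation at lineage genes, and UHRF1 and DNMT1 are known as genes of dividing cells.

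Each value is in RPKM, a read count scaled by transcript length and by the library's mapped reads. Absolute depth is unknown from this table. The steps between low values placed the other 3 libraries at 91.3% to 97.7% of the depth of control replicate 1. The search covered only depths near that of control replicate 1, so it could not show a large difference. All 12 pre-B markers (CD79A, PAX5, RAG1 and others) reached at least 1 RPKM in at least 2 libraries, with summed levels of 1225 and 1399 RPKM with TPA and 2229 and 2216 RPKM in control. Of 8 T-cell markers 1 (BCL11B) reached that level, and CD3D, CD3E and TRAT1 were listed at 0 in every library. The summed T-cell markers had 1.16 and 1.53 RPKM with TPA and 4.36 and 4.52 RPKM in control. The summed NK-cell markers had 7.55 and 6.87 RPKM with TPA and 13.4 and 12.8 RPKM in control, nearly all of it NKG7, and KLRD1 was listed at 0. Of 8 myeloid markers 3 reached it, and the summed myeloid markers had 14.6 and 18.4 RPKM with TPA and 5.63 and 6.82 RPKM in control. CD68, a lysosomal protein gene, had 9.85 and 12.3 RPKM with TPA and 0.554 and 0.731 RPKM in control. CSF1R, a growth factor receptor of macrophages, had 2.93 and 3.66 RPKM with TPA and 0.548 and 0.706 RPKM in control. CEBPA, a myeloid transcription factor, was lower with TPA, at 1.57 and 2.23 RPKM with TPA and 4.41 and 5.15 RPKM in control, while MPO, ELANE and LYZ stayed below 0.1 RPKM. Summed erythroid markers stayed under 0.2 RPKM with HBB listed at 0, and summed stromal markers under 2 RPKM with LUM listed at 0. The part of these marker differences in the results that follow was not tested.

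TPA and control were compared to ask which of these transcripts differ after phorbol ester treatment of B-cell precursors. Tested genes had to reach 1 RPKM in at least 2 libraries, and the test was limma on log2(RPKM + 1), a scale that understates the change of low genes, and a gene was called at a Benjamini-Hochberg adjusted p under 0.05 over all 12159 genes tested. Of the 10 DNA methylation genes 8 were tested, and TET1 and TET2 fell below the filter. UHRF1, DNMT1 and DNMT3B fell, DNMT3A rose, and UHRF2, TET3, TDG and MBD4 did not pass. The 4 calls in 8 tested genes stand beside 58.2% called among all genes tested, where 28.4% rose and 29.8% fell, so the share called was no higher than the background. The median log2 fold change of the 8 genes was -0.25, against -0.02 over all genes tested. Without control replicate 1 the median of the 8 was -0.35 and that over all genes -0.05. Without control replicate 2 these medians were -0.14 and -0.001. They were -0.20 and 0.04 without TPA replicate 1, and -0.29 and -0.09 without TPA replicate 2. The median absolute log2 fold change of the 8 genes was 0.70, against 0.49 over all genes tested. TPA and control libraries were fully apart for 6 of the 8 genes, against 79.8% of all genes tested.

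**Figure D1:**
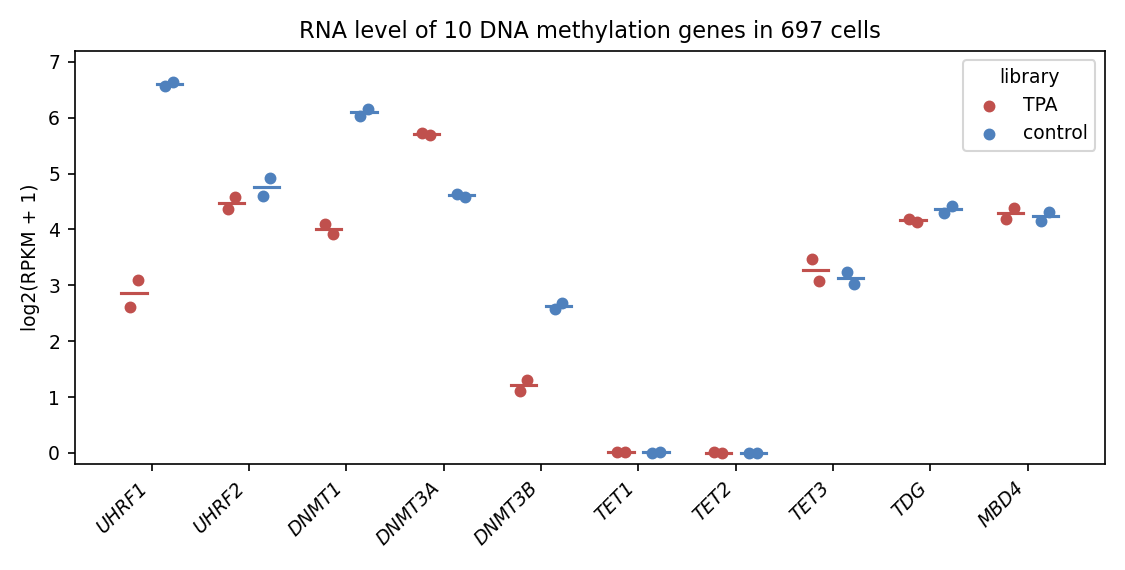
RNA level of the 10 genes in each library, as log2(RPKM + 1) on the vertical axis; points are the 2 TPA and 2 control libraries and short lines their means. UHRF1, DNMT1 and DNMT3B lie lower with TPA, DNMT3A lies higher, and TET1 and TET2 lie at the bottom of the axis in both groups.

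The maintenance pair held the 2 highest levels of the 10 genes in control and the 2 largest falls. UHRF1 (19p13.3), the reader that recognises hemimethylated CpG and recruits DNMT1, had 5.14 and 7.58 RPKM in the TPA libraries and 93.4 and 98.6 RPKM in the control libraries. Both TPA libraries lay far below both controls, and its mean was 15.1-fold lower with TPA (6.36 ± 1.72 RPKM with TPA, 96.0 ± 3.66 RPKM in control; here and later, mean ± SD with n = 2 in each group). Its log2 fold change was -3.74 (SE 0.177, limma, adjusted p = 1.7e-06), the 37th lowest of the 12159. DNMT1 (19p13.2), the enzyme that copies methylation onto the daughter strand, had 16.1 and 14.05 RPKM with TPA and 64.8 and 70.5 RPKM in control. The groups were again apart, and the mean was 4.49-fold lower with TPA (15.1 ± 1.44 RPKM with TPA, 67.6 ± 4.04 RPKM in control), with a log2 fold change of -2.10 (SE 0.139, limma, adjusted p = 8.4e-06). Genes of dividing cells fell beside this pair. GINS2, a subunit of the replicative helicase, had 2.97 and 2.76 RPKM with TPA and 103 and 112 RPKM in control. CDC6, which loads that helicase at origins, had 1.73 and 1.77 RPKM with TPA and 57.6 and 63.0 RPKM in control. Both belong to a list of 15 S-phase and cycling markers. All 15 were tested and lower with TPA past the threshold, against 29.8% of all genes tested. The median of this list was -3.94 in log2 fold change, no marker was listed at 0 in every library, and their summed level was 160.4 and 174.5 RPKM with TPA and 2119 and 2425 RPKM in control. Their part in the falls of UHRF1 and DNMT1 was not tested. In these bulk libraries, fewer cells that express a gene and less of its RNA per cell cannot be told apart.

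The promoters of this pair are shown because both genes fell and each holds a match to the motif of E2F factors, which bind many S-phase genes. The motif was searched as TTTCCCGC, TTTCGCGC, TTTGCCGC or TTTGGCGC on both strands of RefSeq windows (GRCh38.p14, not the hg19 of the authors' table) that run from 250 bases before to 50 after a transcription start. All 10 genes matched by symbol, with 21 windows. Capitals mark the motif match, and each line runs from 250 bases before the start to the 10th base of the transcript.
UHRF1, chr19:4909251-4909510, plus strand: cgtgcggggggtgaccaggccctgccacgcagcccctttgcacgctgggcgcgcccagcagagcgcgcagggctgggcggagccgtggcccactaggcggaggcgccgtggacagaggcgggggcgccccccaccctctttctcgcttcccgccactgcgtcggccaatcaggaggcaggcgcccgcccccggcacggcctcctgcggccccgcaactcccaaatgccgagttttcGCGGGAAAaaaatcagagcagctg
UHRF1, chr19:4909894-4910153, plus strand: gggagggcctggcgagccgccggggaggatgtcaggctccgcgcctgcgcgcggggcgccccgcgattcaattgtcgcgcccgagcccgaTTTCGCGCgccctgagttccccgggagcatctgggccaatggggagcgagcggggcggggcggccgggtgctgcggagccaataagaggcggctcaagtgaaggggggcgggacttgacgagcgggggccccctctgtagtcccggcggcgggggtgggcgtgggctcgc
DNMT1, chr19:10194944-10195203, minus strand: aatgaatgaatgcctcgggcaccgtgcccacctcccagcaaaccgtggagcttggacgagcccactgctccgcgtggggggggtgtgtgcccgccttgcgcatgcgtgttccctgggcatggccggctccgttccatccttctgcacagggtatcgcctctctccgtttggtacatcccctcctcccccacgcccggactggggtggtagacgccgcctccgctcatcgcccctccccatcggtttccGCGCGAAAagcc
In the first UHRF1 window the match lies at -14 to -7 from the start, in the second at -160 to -153, and in DNMT1 it spans the start, from -2 to 6. The remaining UHRF1 window held no match, nor did any window of the other 8 genes, and 3.31% of 35116 windows in the RefSeq table held at least 1. The CCAAT box (CCAAT, found in 34.6% of all windows) was present in 2 of 3 UHRF1 windows and not in that of DNMT1, and the cell cycle element TTTGAA (15.2% of all windows) in no window of either gene. Matches of the 3 motifs overlapped at 0 places in the windows of the 10 genes. The windows of both genes were rich in CpG, with 36 to 46 CG dinucleotides in those of UHRF1 and 30 in that of DNMT1, against a median of 14 over all windows. Every spelling of the E2F motif searched contains CG, so the 3.31% over all windows is not the share for windows as rich in CpG as these. DNMT3B, the other gene that fell, had 3 CG dinucleotides, 1 CCAAT box and no E2F match in its single window. That window covers 1 listed start, and any other DNMT3B start was not examined. The 6 windows of DNMT3A, the gene that rose, held 18 to 46 CG dinucleotides and 0 CCAAT boxes, and 1 of them held TTTGAA. A match is a description of these letters and not of a bound site.

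UHRF2 (9p24.1), the paralogue of UHRF1 with the same set of domains, had 19.6 and 22.8 RPKM with TPA and 23.4 and 29.2 RPKM in control. The 2 groups came close without overlap, and the gene did not pass (log2 fold change -0.29, 95% interval -0.66 to 0.07, limma, adjusted p = 0.148). Leaving out control replicate 1 gave -0.45, TPA replicate 1 -0.19 and control replicate 2 -0.14. The order of the pair therefore differed between groups. The UHRF1 to UHRF2 ratio of RPKM was 0.263 and 0.332 in the TPA libraries and 3.99 and 3.38 in the control libraries. On the log2 scale the ratio averaged -1.76 ± 0.238 with TPA and 1.88 ± 0.171 in control, a difference of -3.64. An exact two-sided permutation test of this ratio gave p = 0.33, the smallest p that 2 against 2 libraries allow; 3 such ratios were tested, and adjustment over them leaves each p as it is. UHRF1 made up 20.8% and 24.9% of summed UHRF RPKM with TPA, against 80.0% and 77.2% in control.

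The de novo methyltransferases moved in opposite directions. DNMT3A (2p23.3) had 52.2 and 50.9 RPKM with TPA and 24.0 and 22.9 RPKM in control. Both TPA libraries were above both controls with little spread, and the mean was 2.20-fold higher with TPA (51.5 ± 0.914 RPKM with TPA, 23.4 ± 0.776 RPKM in control), with a log2 fold change of 1.10 (SE 0.129, limma, adjusted p = 1.85e-04). Its row carries a transcript accession that RefSeq gives to the short isoform DNMT3A2. That transcript shares most of its exons with the full-length form, so the value does not tell the isoforms apart. DNMT3B (20q11.21), which is mutated in the immunodeficiency syndrome ICF, was low throughout, with 1.16 and 1.49 RPKM with TPA and 4.99 and 5.46 RPKM in control. The groups did not overlap, and the mean was 3.95-fold lower with TPA (1.32 ± 0.231 RPKM with TPA, 5.23 ± 0.331 RPKM in control), with a log2 fold change of -1.43 (SE 0.138, limma, adjusted p = 6.54e-05).

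The most abundant methyltransferase transcript was DNMT3A with TPA and DNMT1 in control. DNMT3A made up 75.1% and 76.6% of summed DNMT RPKM in the TPA libraries, and 25.6% and 23.2% in the control libraries. DNMT1 made up 23.2% and 21.2% with TPA, and 69.1% and 71.3% in control. The total of the 3 transcripts was 69.4 and 66.4 RPKM with TPA and 93.8 and 98.8 RPKM in control, so the totals lay closer together than DNMT1 alone. The DNMT1 to DNMT3A plus DNMT3B ratio was 0.302 and 0.268 with TPA and 2.24 and 2.49 in control. Its log2 value averaged -1.81 ± 0.12 with TPA and 1.24 ± 0.109 in control, a difference of -3.05 (exact two-sided permutation p = 0.33, the smallest possible).

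**Figure D2:**
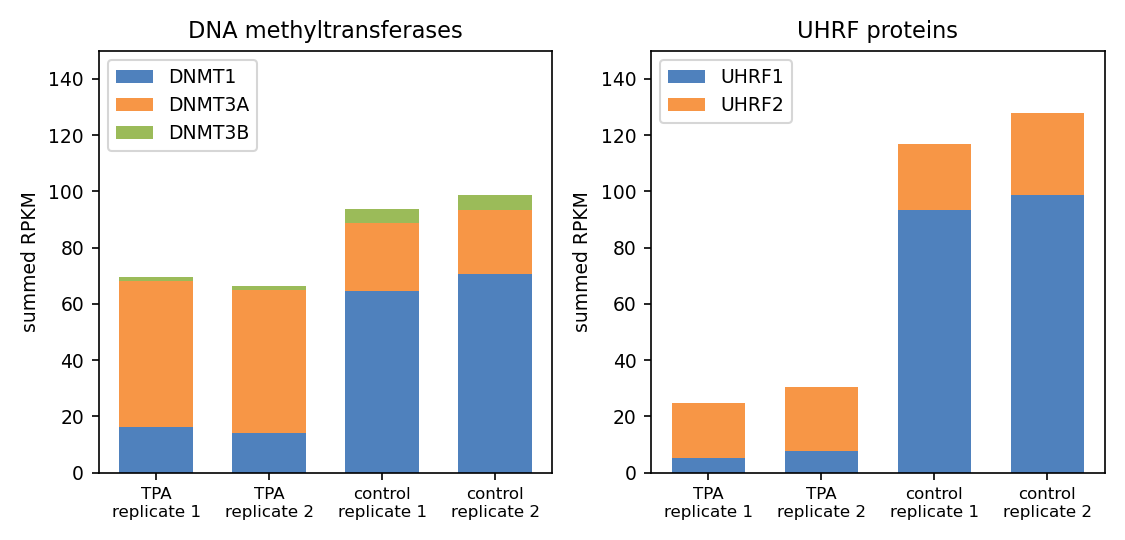
Summed RPKM of the DNA methyltransferases (left) and of UHRF1 and UHRF2 (right) in each library, stacked by gene. DNMT3A fills most of the methyltransferase bar in both TPA libraries and DNMT1 in both control libraries, and UHRF1 fills most of the UHRF bar in the control libraries.

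Of the TET dioxygenases, TET3 alone had a level above 1 RPKM. TET3 (2p13.1) had 10.2 and 7.46 RPKM with TPA and 8.47 and 7.09 RPKM in control. The groups overlapped, and the gene did not pass (log2 fold change 0.15, 95% interval -0.24 to 0.55, limma, adjusted p = 0.477). Its fold change turned to -0.049 without TPA replicate 1. TET1 (10q21.3) was listed at 0.007 and 0.01 RPKM with TPA and at 0.002 and 0.011 RPKM in control. TET2 (4q24), a gene often mutated in myeloid malignancy, was listed at 0.007 and 0 RPKM with TPA and at 0.002 and 0 RPKM in control. These values overlap between groups and are too low for a comparison. Of 82 ribosomal protein genes, only RPS18, a gene used by every cell, was listed at 0 in at least 1 library. A 0 in this table can therefore be a failed estimate, though this was rare among those genes. The TET2 row stands for a single RefSeq transcript, and other TET2 transcripts were not analysed here. The TET sum was nearly all TET3 in every library, so any failed TET1 or TET2 estimate enters it. The summed DNMT to summed TET ratio was 6.83 and 8.89 in the TPA libraries and 11.1 and 13.9 in the control libraries. Its log2 value was lower by 0.67 with TPA (2.96 ± 0.269 with TPA, 3.63 ± 0.235 in control, a TPA minus control difference of -0.67, exact two-sided permutation p = 0.33, the smallest possible).

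The glycosylases stayed within a narrow range. TDG (12q23.3), which excises the bases that TET enzymes oxidise, had 17.3 and 16.7 RPKM with TPA and 18.8 and 20.5 RPKM in control. The groups did not overlap, yet the gene did not pass (log2 fold change -0.20, 95% interval -0.50 to 0.10, limma, adjusted p = 0.226). MBD4 (3q21.3), which repairs G to T mismatches at methylated CpG, had 17.3 and 19.9 RPKM with TPA and 16.9 and 18.9 RPKM in control. Its groups overlapped, and it did not pass (log2 fold change 0.05, 95% interval -0.27 to 0.38, limma, adjusted p = 0.768). Its fold change turned to -0.024 without control replicate 1 and to -0.044 without TPA replicate 2.

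**Figure D3:**
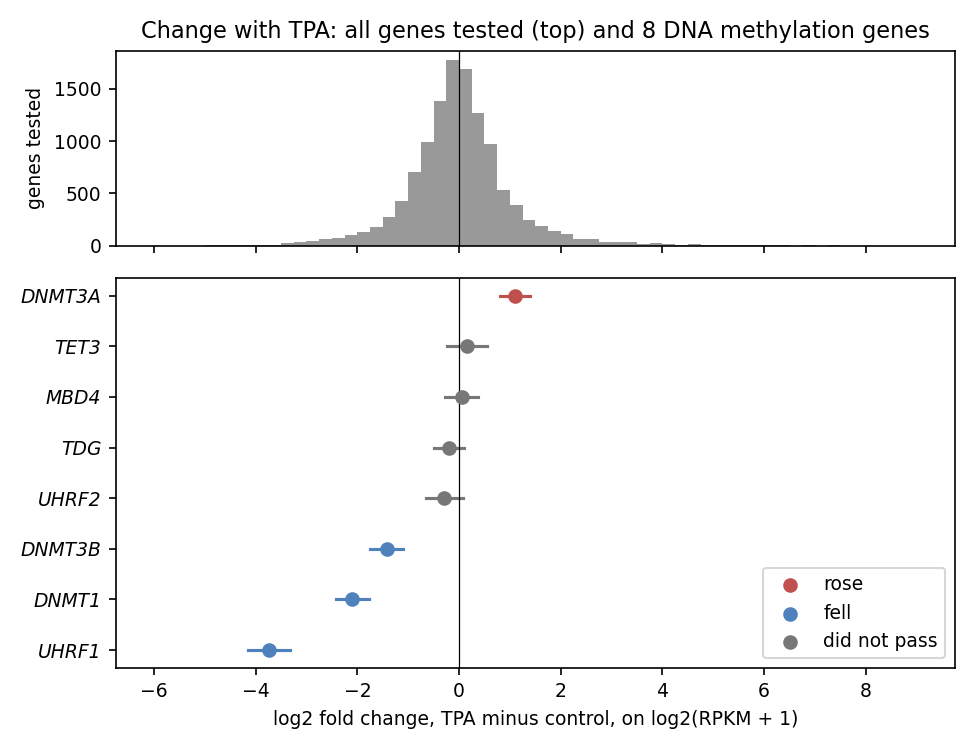
Top, the number of genes tested by log2 fold change (TPA minus control, on log2(RPKM + 1)); bottom, the 8 tested DNA methylation genes with 95% intervals from limma. UHRF1 at -3.74 and DNMT1 at -2.10 lie in the lower tail, DNMT3A at 1.10 lies above 0, and the intervals of UHRF2, TDG, MBD4 and TET3 cross 0.

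RPKM is scaled to transcript length, so levels of different genes can be set in order, as an approximation. The order, and the shares and ratios between genes given above, may shift where isoforms other than the 1 listed are expressed. With TPA the order was DNMT3A (51.5 RPKM), UHRF2 (21.2), MBD4 (18.6), TDG (17.0), DNMT1 (15.1), TET3 (8.81), UHRF1 (6.36) and DNMT3B (1.32), followed by TET1 and TET2. In this group the libraries of UHRF2 and MBD4, of TET3 and UHRF1, and of TET1 and TET2 overlapped as neighbours. In control the order was UHRF1 (96.0 RPKM), DNMT1 (67.6), UHRF2 (26.3), DNMT3A (23.4), TDG (19.6), MBD4 (17.9), TET3 (7.78) and DNMT3B (5.23), followed by TET1 and TET2. Here UHRF2 and DNMT3A, TDG and MBD4, and TET1 and TET2 overlapped as neighbours. The 10 genes together summed to 138.9 and 140.9 RPKM with TPA and to 254.7 and 273.1 RPKM in control.

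Partners and relatives of the DNMT enzymes and UHRF1 were mostly lower with TPA. Of the 7 tested genes on this list (9 in the table), 6 fell, 0 rose and 1 did not pass, with a median log2 fold change of -3.27. Among all genes tested, 28.4% rose and 29.8% fell. HELLS, a remodeller that opens chromatin for maintenance methylation, had 0.833 and 0.908 RPKM with TPA and 25.6 and 29.3 RPKM in control (log2 fold change -3.92, limma, adjusted p = 4.64e-07). LIG1, the replicative ligase that UHRF1 also binds, had 3.604 and 2.93 RPKM with TPA and 41.1 and 39.2 RPKM in control (log2 fold change -3.27, limma, adjusted p = 1.04e-06). The list shares PCNA with the S-phase markers given above. Its smallest fall was that of USP7, with a log2 fold change of -0.51. The gene that did not pass, DMAP1, which binds DNMT1, had a log2 fold change of 0.33. DNMT3L, a catalytically inactive cofactor of the de novo enzymes, and TRDMT1, a tRNA methyltransferase, stayed below 1 RPKM in every library.

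Among the 8 methyl-CpG readers tested, 2 rose, 1 fell and 5 did not pass (median log2 fold change -0.02), beside 28.4% that rose and 29.8% that fell among all genes. MBD3, a subunit of the NuRD complex, had 18.8 and 19.6 RPKM with TPA and 36.1 and 31.7 RPKM in control (log2 fold change -0.79, limma, adjusted p = 0.0015). MBD5, a protein with a methyl-CpG-binding domain, had 4.74 and 5.18 RPKM with TPA and 1.73 and 1.62 RPKM in control (log2 fold change 1.16, limma, adjusted p = 1.43e-04). ZBTB4, a zinc finger reader, rose with a log2 fold change of 0.42.

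Base excision repair, the route that follows TDG and MBD4, had 17 tested genes. Of these 4 rose, 7 fell and 6 did not pass (median log2 fold change -0.08). The share called was near the 58.2% among all genes, where 28.4% rose and 29.8% fell. FEN1, the flap nuclease of long-patch repair and of Okazaki fragments, had 6.17 and 7.05 RPKM with TPA and 117 and 132 RPKM in control (log2 fold change -4.04, limma, adjusted p = 4.77e-07). NEIL3, a glycosylase of dividing cells, fell with a log2 fold change of -2.64. MPG, the alkyladenine glycosylase, had 135 and 139 RPKM with TPA and 32.4 and 32.03 RPKM in control (log2 fold change 2.05, limma, adjusted p = 6.39e-06), and OGG1, which removes oxidised guanine, rose with a log2 fold change of 1.60.

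Genes of TET partners and of the metabolites that feed or block TET enzymes had 10 tested. Of these 1 rose, 5 fell and 4 did not pass (median log2 fold change -0.36). The share called was again near the 58.2% among all genes, where 28.4% rose and 29.8% fell. CXXC5, a CXXC zinc finger protein that binds TET2, had 81.1 and 95.3 RPKM with TPA and 10.7 and 10.6 RPKM in control (log2 fold change 2.93, limma, adjusted p = 1.78e-06). D2HGDH, which clears the TET inhibitor hydroxyglutarate, fell with a log2 fold change of -0.79. Genes of the S-adenosylmethionine cycle, which supplies the methyl donor of all DNMT enzymes, had 13 tested. Of these 4 rose, 7 fell and 2 did not pass (median log2 fold change -0.38), beside 28.4% that rose and 29.8% that fell among all genes. The list also holds genes of polyamine synthesis and salvage, SRM among them, so its counts do not describe supply of this donor alone. MAT2A, the synthase of that donor outside the liver, had 53.3 and 50.2 RPKM with TPA and 127 and 130.2 RPKM in control (log2 fold change -1.30, limma, adjusted p = 7.98e-05). SRM, the spermidine synthase, fell with a log2 fold change of -1.39, while AHCYL1, a relative of the enzyme that hydrolyses S-adenosylhomocysteine, rose with 0.73 on the same scale.

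Of the cytosine deaminases, 6 were tested, of which 3 rose, 1 fell and 2 did not pass (median log2 fold change 0.63). Among all genes 58.2% were called, where 28.4% rose and 29.8% fell. APOBEC3F and APOBEC3G rose with log2 fold changes of 1.65 and 1.52, and APOBEC3B fell with -1.67. These neighbours at 22q13.1 are similar in sequence, and how reads that fit several copies were counted is not given in the sources used here, so their values are uncertain. Of 21 germline genes known to be silenced by promoter methylation, 13 were listed at 0 in all 4 libraries and 1, SYCP3, was tested and did not pass (log2 fold change -0.28). No germline gene on this list exceeded 1.44 RPKM with TPA or 2.06 RPKM in control. Of 16 imprinted genes 2 were tested: SNRPN, whose transcript also encodes SNURF, had 90.04 and 122 RPKM with TPA and 49.3 and 54.3 RPKM in control and rose (limma, adjusted p = 0.00147), and GRB10, an adaptor of growth factor receptors, fell with a log2 fold change of -1.53.

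**Figure D4:**
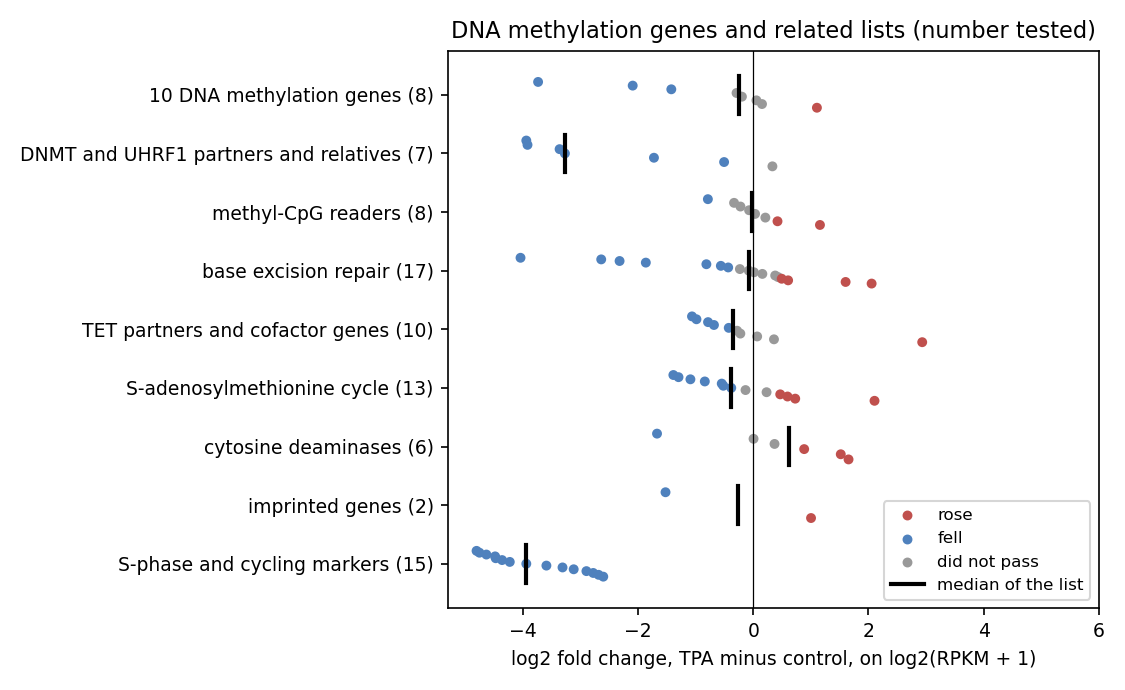
Log2 fold change (TPA minus control, on log2(RPKM + 1)) of each tested gene, by list, with the number tested in brackets; vertical bars are list medians. The S-phase markers and the DNMT and UHRF1 partners and relatives have medians of -3.94 and -3.27. All tested genes of these lists but DMAP1 (0.33) lie left of 0.

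Profiles close to the largest fall and the largest rise were sought by the Euclidean distance between log2(RPKM + 1) values in the 4 libraries, each centred on the control mean, over the 8721 other tested genes that averaged 5 RPKM or more. The 3 closest to UHRF1 were PCNA-AS1 (distance 0.18), PKMYT1, a kinase that restrains CDK1 (0.191), and CACNG4, a calcium channel subunit gene (0.235). Closeness on this scale need not mean a like fold in RPKM. The mean was 14.6-fold lower with TPA for PCNA-AS1, 18.3-fold for PKMYT1 and 27.6-fold for CACNG4, against 15.1-fold for UHRF1. CACNG4 had only 0.641 and 1.10 RPKM with TPA. PCNA-AS1 lies antisense to PCNA, and strand use in counting is not stated, so reads of the pair cannot be told apart. The 3 closest to DNMT3A were EPB41L4A-AS1 (0.0482), MAP3K12, a kinase of stress signalling (0.0522), and FERMT3, the integrin activator kindlin-3 (0.0615). With 4 libraries, such closeness describes level differences and no more.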

How the data were processed

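The authors deposited 1 table of RPKM values, per the file headers, with 1 RefSeq accession, symbol and cytogenetic band per gene; the submitters' processing notes name CASAVA 1.8, Bowtie 1.12, TopHat, SAMtools and HOMER on hg19 without role or order. Strand use and multi-mapping reads are not given in the sources used here. Columns were matched to samples by title. Here, values were transformed to log2(RPKM + 1) without further scaling, filtered at 1 RPKM in at least 2 libraries and fitted with limma 3.58.1 in R 4.3.3 (TPA minus control, mean-variance trend, two-sided, Benjamini-Hochberg over all genes tested); the script was tested on simulated data. Ratios were compared by exact permutation. The members, gene lists, motifs and tests were chosen with earlier results of these data known. Named genes were all 10 members, for each list the 2 called genes of lowest p that rose and the 2 that fell, and the 3 nearest profiles to the largest fall and rise. DMAP1, DNMT3L, TRDMT1, PCNA, USP7, SYCP3 and the markers were named after their values were seen. Alternatives covered pseudocounts, filters, scaling, the trend, a replicate block and each library left out. Figures used matplotlib 3.10.9. Some genes that this rule names are not reported here.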

Additional observations from a re-analysis of the deposited data

How the results depend on the processing

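The calls of UHRF1, DNMT1 and DNMT3A kept their direction and side of the threshold in all 12 alternatives, and that of DNMT3B in the 11 in which it was tested (the 5 RPKM filter removed it). Log2 fold changes ran from -3.98 to -3.50 for UHRF1, -2.19 to -1.9996 for DNMT1, -1.91 to -1.32 for DNMT3B and 1.07 to 1.20 for DNMT3A. With libraries left out in turn, TET3 ran from -0.049 (without TPA replicate 1) to 0.35 and MBD4 from -0.044 (without TPA replicate 2; -0.024 without control replicate 1) to 0.15; neither passed anywhere. UHRF2 ran from -0.45 (without control replicate 1) to -0.14 (without control replicate 2). The median of the 8 tested genes ran from -0.35 to -0.14 with libraries left out, and was -0.098 with no filter, where all 10 genes entered. The called genes among all tested ran from 5470 (without control replicate 2) to 8234 (replicate block). Replicates 1 minus 2 correlated across genes with r = 0.361 between groups, but 2 pairs do not show that the numbers pair the samples. With the replicate block 5 DNA methylation genes were called in place of 4, UHRF2 at -0.29 being added (limma, adjusted p = 0.0217). The difference in log2 ratio, TPA minus control, ran from -3.81 to -3.45 for UHRF1 to UHRF2, -3.14 to -2.96 for DNMT1 to DNMT3A plus DNMT3B, and -0.86 to -0.48 for DNMT to TET. P-values without either control replicate rest on infinite prior degrees of freedom and cannot be set against the others. Depth is unknown, so TET1 and TET2 at a few thousandths of an RPKM carry no interval.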
